A study of Mus musculus with 3 samples.

Results

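SOX factors are transcription factors that bind DNA through an HMG box related to that of the sex-determining gene Sry. The levels of 10 SOX genes were read from RNA-seq of melan-a cells, an immortalized line of mouse melanocytes. The genes were *Sox10*, *Sox9* and *Sox8* of the SOXE group, *Sox5*, *Sox6* and *Sox13* of SOXD, *Sox4* and *Sox11* of SOXC, *Sox2* of SOXB1 and *Sox18* of SOXF. They were taken by symbol, with no threshold on their values, and all 10 were found among the 22698 Ensembl genes of the files. The only group was untreated melan-a cells, in 3 libraries labelled replicates 1, 3 and 4. The labels give the strain background as C57BL/6J and say that the melanocytes derive from Ink4a-ARF-/- mice. All libraries came from cells kept at 37 °C with 10% fetal bovine serum, 200 nM 12-O-tetradecanoylphorbol 13-acetate (a phorbol ester that activates protein kinase C) and 200 pM cholera toxin, which raises cAMP. They are described as bioreplicates of a single line, and whether the cultures were separate is not stated, so the spread between them may be technical. With 1 group there was no contrast between conditions.

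*Sox10* is needed for the melanocyte lineage, where with PAX3 it activates *Mitf*, and it also acts in Schwann cells and oligodendrocytes. *Sox9*, its close relative, drives cartilage formation and testis development. The SOXD factors lack a known transactivation domain and work with SOXE factors as partners or as antagonists. In melanoblasts *Sox5* is known to oppose *Sox10*. SOXC factors act in neuronal and mesenchymal progenitors, *Sox2* in pluripotent and neural stem cells, and *Sox18* in endothelium.

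The coding stretch of the HMG box is shown for 5 of the genes, because it encodes the domain that defines the family. Each stretch holds 216 bases, read 5′ to 3′ on the coding strand from the transcript with the longest coding sequence in the NCBIM37 (mm9) annotation. Capitals mark the longest run that also occurs in the *Sox10* stretch, so *Sox10* itself has none.
Sox10: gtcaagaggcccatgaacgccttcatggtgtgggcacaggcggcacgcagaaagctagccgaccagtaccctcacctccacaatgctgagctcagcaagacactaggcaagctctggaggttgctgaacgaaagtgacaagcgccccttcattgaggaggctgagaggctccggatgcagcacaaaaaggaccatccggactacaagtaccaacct
Sox9: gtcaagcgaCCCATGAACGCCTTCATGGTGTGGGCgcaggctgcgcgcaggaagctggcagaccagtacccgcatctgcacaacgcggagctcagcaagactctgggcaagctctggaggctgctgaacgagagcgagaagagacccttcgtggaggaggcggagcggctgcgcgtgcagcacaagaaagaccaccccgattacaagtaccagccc
Sox8: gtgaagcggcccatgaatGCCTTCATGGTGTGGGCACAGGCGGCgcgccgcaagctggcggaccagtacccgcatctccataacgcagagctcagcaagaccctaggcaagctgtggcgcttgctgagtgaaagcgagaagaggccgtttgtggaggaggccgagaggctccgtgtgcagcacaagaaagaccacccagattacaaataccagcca
Sox4: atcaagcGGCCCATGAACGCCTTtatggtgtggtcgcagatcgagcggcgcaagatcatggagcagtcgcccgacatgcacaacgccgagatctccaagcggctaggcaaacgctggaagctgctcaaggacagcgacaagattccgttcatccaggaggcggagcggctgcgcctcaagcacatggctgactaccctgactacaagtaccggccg
Sox6: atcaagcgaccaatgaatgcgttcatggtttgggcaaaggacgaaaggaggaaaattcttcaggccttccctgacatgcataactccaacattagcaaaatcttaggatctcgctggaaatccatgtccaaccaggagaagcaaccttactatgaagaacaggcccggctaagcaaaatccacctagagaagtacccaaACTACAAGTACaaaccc

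The *Sox10* stretch lies on the minus strand of chromosome 15 (mm9) in 2 exons, chr15:78993719-78993837 and chr15:78989737-78989833. Those of *Sox9* are chr11:112644211-112644329 and chr11:112645123-112645219 on the plus strand, and those of *Sox8* are chr17:25707055-25707173 and chr17:25705909-25706005 on the minus strand. In all 3 SOXE genes the intron falls after base 119 of the stretch. In *Sox6*, on the minus strand at chr7:122633177-122633282 and chr7:122630169-122630278, it falls after base 106, as in *Sox5*, *Sox13* and *Sox18*. *Sox4*, at chr13:29044501-29044716 on the minus strand, has the whole stretch in a single exon, as do *Sox11* and *Sox2*. Compared with *Sox10*, 83.8% of the bases were equal in *Sox9*, 82.4% in *Sox8*, 69.9% in *Sox4* and 57.4% in *Sox6*. The longest run shared between the whole *Sox10* transcript and another member was 44 bases, with *Sox9*, and is not contained in the HMG box stretch. Within the stretch the longest was 29 bases with *Sox2* and 28 with *Sox18*, against 26 with *Sox9*. Over the whole transcripts it was 26 bases with *Sox8* and 16 with *Sox4*. The read length is not given in the sources used here.

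*Sox10* was the highest SOX gene in every library, followed by *Sox4* and *Sox6*, while *Sox8*, *Sox11*, *Sox2* and *Sox18* were near or below the level of 3 reads. Values are FPKM, read numbers corrected for gene length and library size, which the authors scaled by TMM (a trimmed-mean method that aligns libraries) and gave to 2 decimals. Of the 10 members, 4 had a mean of at least 1 FPKM, against 45.1% of all 22698 genes. The number of reads behind a value was estimated from the gene length and library sizes of 53900000, 47100000 and 66300000 reads for replicates 1, 3 and 4, which are the sizes at which low values of short genes come closest to whole reads. By that estimate 6 members had at least 3 reads in every library, and 3 reads was taken as the lowest level that can be read. The share of all genes with at least 3 reads was not computed. Of the 22698 genes, 14500, 14373 and 14770 were above 0 in replicates 1, 3 and 4, so the count of 6 does not set the members apart.

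**Figure D1:**
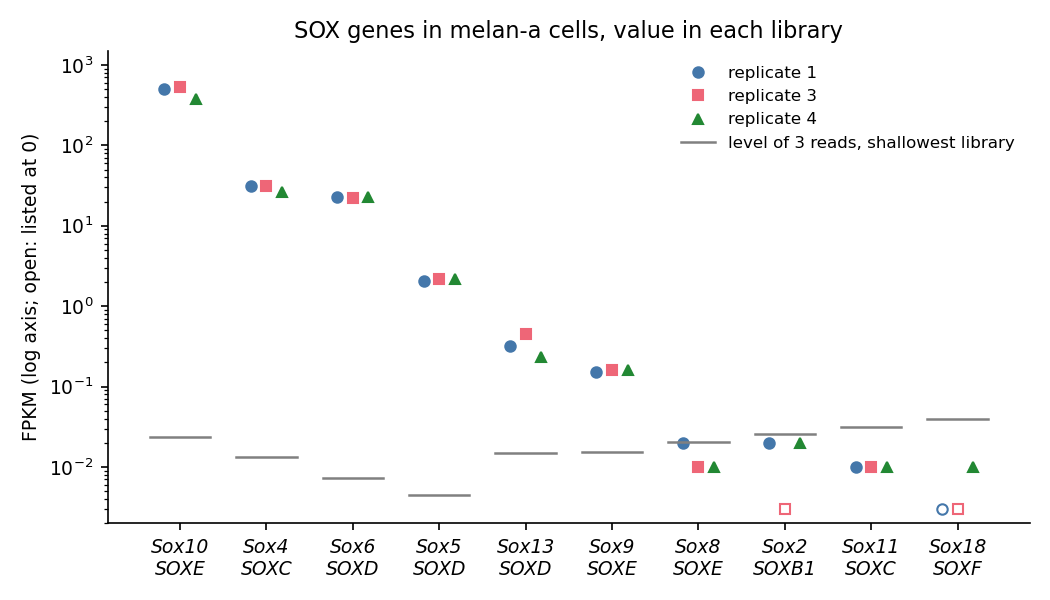
FPKM of the 10 SOX genes in melan-a cells on a log axis, with a point for each of the 3 libraries, open points for values listed at 0 and a grey bar at the level of 3 reads in the shallowest library. *Sox10* lies between 371.56 and 535.48 FPKM, *Sox4* and *Sox6* between 21.95 and 31.42 FPKM, and the 4 genes on the right lie at or under the bars.

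Among the SOXE genes, *Sox10* (chr15:78985343-78994920, minus strand) had 496.68, 535.48 and 371.56 FPKM in replicates 1, 3 and 4. Its mean was 468 ± 85.7 FPKM (SD, n = 3), and its rank by the mean was 83 of 22698 genes. In single libraries the rank was 79, 77 and 102. Replicate 4 was the lowest, and the others lay closer together. About 72630, 68425 and 66833 reads stood behind these values, so counting error was small beside the spread between libraries.

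*Sox9* (chr11:112643538-112649074, plus strand) had 0.15, 0.16 and 0.16 FPKM in replicates 1, 3 and 4. These correspond to about 33, 31 and 44 reads, with exact 95% Poisson intervals of 22.7 to 46.3, 21.1 to 44.0 and 32.0 to 59.1, which cover counting error only. *Sox9* was thus above the level of 3 reads in all libraries, and its FPKM differed by no more than 0.01, the last decimal given. *Sox10* exceeded *Sox9* by 3311, 3347 and 2322 times in replicates 1, 3 and 4.

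*Sox8* (chr17:25702837-25707631, minus strand), the third SOXE gene, had 0.02 FPKM in replicate 1 and 0.01 in replicates 3 and 4. The estimates were 3.4, 1.5 and 2.1 reads, and only replicate 1 reached 3 reads. It was not detectable as different from 0 at this depth in the other libraries.

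Of the SOXD genes, *Sox6* (chr7:122614858-123182258, minus strand) had values of 22.49, 21.95 and 22.85 FPKM in replicates 1, 3 and 4, averaging 22.4 ± 0.453 (SD, n = 3). As deposited, 96.5% of the genes at or above 1 FPKM in every library had a larger SD on the log2 scale, and after an adjustment for GC content 41.2% did.

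*Sox5* (chr6:143776945-144730497, minus strand) had 2.07, 2.19 and 2.17 FPKM, averaging 2.14 ± 0.0643 (SD, n = 3). Of the same genes, 92.4% had a larger SD as deposited and 20.6% after the adjustment. *Sox6* exceeded *Sox5* by 10.9, 10.0 and 10.5 times in replicates 1, 3 and 4. The length that the authors used is not stated. The exons of *Sox5* join to 14376 bases over 14 annotated transcripts, but the longest transcript has 7243 bases. Per base of the longest transcript the mean of *Sox5* would be 4.25 ± 0.128 FPKM and that of *Sox6* 24.1 ± 0.487 (SD, n = 3). *Sox5* is known to have long and short forms, which a value per gene cannot tell apart.

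*Sox13* (chr1:135278880-135320954, minus strand), the third SOXD gene, had 0.32, 0.45 and 0.23 FPKM, averaging 0.333 ± 0.111 (SD, n = 3). It had the largest spread of the 6 readable members, with a coefficient of variation of 33.2%. The estimates were 74, 91 and 66 reads, with exact 95% Poisson intervals of 58.1 to 92.9, 73.3 to 111.7 and 51.0 to 84.0.

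Of the SOXC genes, *Sox4* (chr13:29040788-29045582, minus strand) had values of 31.42, 30.83 and 26.16 FPKM in replicates 1, 3 and 4, averaging 29.5 ± 2.88 (SD, n = 3). Like *Sox10* it was lowest in replicate 4. A second Ensembl gene with the symbol *Sox4* shares 405 of its exon bases (8.4%) on the same strand and is listed at 0 in every library. *Gm17419*, which is not among the genes of the files, overlaps 2616 of the exon bases of *Sox4* (54.6%) on the opposite strand. Whether the counting used the strand is not stated. Reads in a shared stretch can be left uncounted by htseq-count, and their number was not tested.

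*Sox11* (chr12:28025562-28027574, minus strand), the paralog that acts beside *Sox4* in neural progenitors, had 0.01 FPKM in each library, an estimate of 1.1, 0.9 and 1.3 reads. It stayed under 3 reads in all libraries. *Sox12*, the remaining SOXC gene, is not among the 10 and had 3.02, 3.30 and 1.97 FPKM, averaging 2.76 ± 0.701 (SD, n = 3).

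*Sox2* (chr3:34548927-34551383, plus strand) had 0.02 FPKM in replicates 1 and 4 and was listed at 0 in replicate 3. The estimates were 2.6, 0.0 and 3.3 reads. *Sox18* (chr2:181404541-181406345, minus strand) was listed at 0 in replicates 1 and 3 and had 0.01 FPKM in replicate 4, about 1.1 reads. In replicate 3, the shallowest library, 3 reads came to 0.0259 FPKM for *Sox2* and 0.0393 for *Sox18*. Neither gene was detectable in all libraries at this depth.

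Read from the highest, the order of the means was *Sox10*, *Sox4*, *Sox6*, *Sox5*, *Sox13* and *Sox9*, and each of the 6 exceeded the next in all 3 libraries. The ratio of the means was 15.9 for *Sox10* to *Sox4*, 1.31 for *Sox4* to *Sox6*, 10.5 for *Sox6* to *Sox5*, 6.43 for *Sox5* to *Sox13* and 2.13 for *Sox13* to *Sox9*. The closest neighbours were *Sox4* and *Sox6*, with ratios of 1.40, 1.41 and 1.15 in replicates 1, 3 and 4. On the scale of log2(FPKM + 0.1) they differed by 0.39 ± 0.17 (SD, n = 3). Counted as estimated reads, which are not per length, *Sox6* exceeded *Sox4*, by 0.50 on the log2 scale, because its exons join to 8852 bases against 4795. *Sox13* and *Sox9* differed by 0.72 ± 0.37 on the same log2(FPKM + 0.1) scale. The remaining members, *Sox8*, *Sox2*, *Sox11* and *Sox18*, could not be ordered, since in no pair of them was 1 gene higher in all libraries.

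Of the 45 pairs of members, 39 had the same gene higher in all 3 libraries, with a mean log2 ratio larger than its SD. The exact two-sided sign-flip permutation test over 3 libraries cannot give a p below 0.25. After Benjamini-Hochberg adjustment over the 45 pairs the lowest p was 0.288, so no pair could pass 0.05 in this design. Among all 19 SOX genes with an identifier in the annotation, *Sox12* lay between *Sox6* and *Sox5*, but it exceeded *Sox5* only in replicates 1 and 3, and the ratio was 0.908 in replicate 4. Per base of its longest transcript *Sox5* would have 4.11, 4.35 and 4.31 FPKM and would exceed *Sox12* in all libraries. In genes with several transcripts (14, 19 and 5 genes), joined exons came closer to whole reads, at mean distances of 0.151, 0.11 and 0.062 reads in replicates 1, 3 and 4 against 0.169, 0.218 and 0.179 for the longest transcript. *Sox21* (0.23, 0.25 and 0.19 FPKM) and *Sox15* (0.26, 0.17 and 0.19 FPKM) lay between *Sox13* and *Sox9* and did not differ from each other beyond their spread. *Sox15*, at an estimated 12.1, 6.9 and 10.8 reads, also did not exceed *Sox9* beyond its spread (0.25 ± 0.25 on the log2(FPKM + 0.1) scale, SD, n = 3).

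*Sox10* made up 89.8%, 90.6% and 87.8% of the summed FPKM of the 10 members in replicates 1, 3 and 4, averaging 89.4% ± 1.44 (SD, n = 3). *Sox4* contributed 5.69% ± 0.48 and *Sox6* 4.39% ± 0.89 (SD, n = 3). The 6 members under 1 FPKM together held 0.52, 0.63 and 0.44 FPKM of totals of 553.18, 591.08 and 423.18 FPKM. Without *Sox10* the total of the other members was 56.5, 55.6 and 51.62 FPKM, so the fall of the total in replicate 4 lay mostly in *Sox10*. With all 19 SOX genes in the total, the share of *Sox10* was 88.8% ± 1.39 (SD, n = 3).

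The spread of *Sox10* between libraries was like that of other genes of its GC content. The joined exons of *Sox10* have 61.7% GC, and those of *Sox13* 60%, *Sox12* 59.7%, *Sox4* 51.1%, *Sox9* 49.3%, *Sox6* 46.1% and *Sox5* 45.3%. Across the 10007 genes with at least 1 FPKM in every library, which are not independent replicates, the log2 ratio of replicate 3 to replicate 4 had a Spearman's rho of 0.779 with GC content. The log2 ratio of *Sox10* between these libraries was 0.53. The 172 genes within 1 percentage point of its GC content had a median of 0.62, with 5% below 0.13 and 5% above 0.91. *Sox10* thus lay among genes of like GC content. *Sox12*, with 0.74 against a median of 0.50, also lay inside the range of its 439 like genes, but its log2 ratio of replicate 1 to replicate 4, 0.62, was above their 95th percentile of 0.58.

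**Figure D2:**
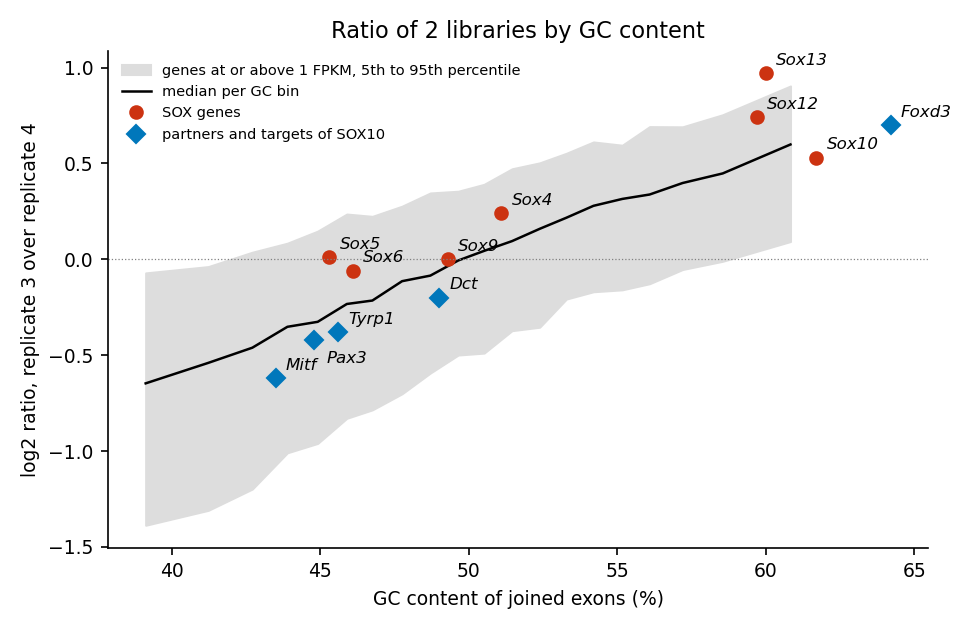
Log2 ratio of replicate 3 to replicate 4 (y axis) against the GC content of the joined exons in percent (x axis). The grey band and black line give the 5th to 95th percentile and the median of the 10007 genes at or above 1 FPKM in every library, red points SOX genes and blue diamonds partners and targets of SOX10. *Sox10* at 0.53 lies below the values of *Sox12* (0.74) and *Sox13* (0.97), while *Mitf* (-0.62) and *Pax3* (-0.42) lie on the other side of 0.

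*Sox13* stood further out, at 0.97 against a median of 0.51 and a 95th percentile of 0.81 for 380 genes of like GC content, at its low number of reads. *Sox4* had a log2 ratio of 0.24, within the range of -0.41 to 0.43 of its 1105 like genes. *Sox5* (0.01) and *Sox6* (-0.06) changed little between the libraries, where genes of their GC content had medians of -0.28 and -0.23. Both still lay inside the 5th to 95th percentile of those genes.

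When each library was adjusted for GC content in 20 bins of genes, *Sox10* came to 468.8, 452.1 and 466.3 FPKM in replicates 1, 3 and 4, a mean of 462 ± 8.97 (SD, n = 3). Its SD on the log2 scale fell from 0.28 to 0.03. Without replicate 4 the SD of the deposited log2 values was 0.08. The SD of *Sox6* rose from 0.03 to 0.13 with the adjustment and that of *Sox5* from 0.04 to 0.19, so the adjustment did not narrow every SOX gene. The SD of *Sox4* was 0.145 as deposited and 0.142 adjusted. Adjusted, *Sox12* exceeded *Sox5* in all 3 libraries, by 1.39, 1.12 and 1.28 times.

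**Figure D3:**
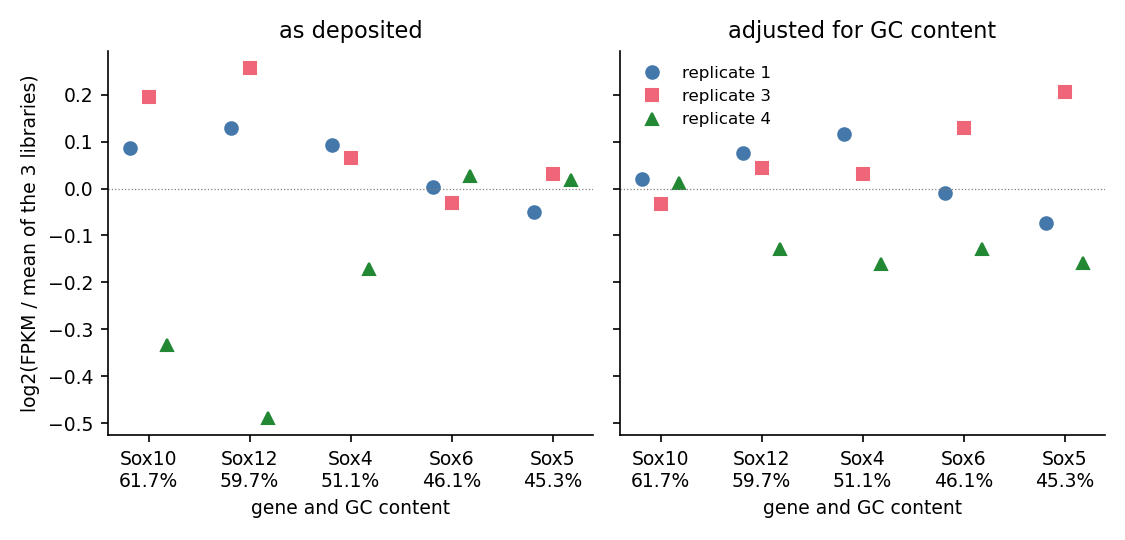
Log2 ratio of each library to the mean of the 3 libraries for 5 SOX genes ordered by GC content, with deposited FPKM in the left panel and values adjusted for GC content in the right panel. *Sox10* falls to an SD of 0.03 with the adjustment, while *Sox5* widens to 0.19.

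Among 10 listed partners and regulators of SOX10, 6 had a mean of at least 1 FPKM, against 45.1% of all genes. *Tfap2a*, which encodes the AP-2 factor of neural crest and melanocytes, had 37.04, 35.87 and 38.77 FPKM. *Pax3*, the paired-box partner of SOX10 at *Mitf*, had 32.49, 28.61 and 38.27 FPKM. *Mitf*, the regulator of pigment genes, had 22.27, 17.4 and 26.77 FPKM. *Sox10* exceeded each of these in every library. *Mitf* and *Pax3* were highest in replicate 4, where *Sox10* was lowest. Their exons have 43.5% and 44.8% GC, and their log2 ratios of replicate 3 to replicate 4, -0.62 and -0.42, stood beside medians of -0.40 and -0.31 in genes of like GC content. *Foxd3*, a neural crest factor known to repress *Mitf*, has 64.2% GC and had 17.28, 19.21 and 11.79 FPKM, the same order of libraries as *Sox10*. *Zeb2*, a zinc-finger factor of neural crest, had 18.44, 14.55 and 23.11 FPKM, and *Lef1*, which acts with beta-catenin, had 6.61, 6.82 and 6.73 FPKM. The partners of SOX10 in glia had low values. *Egr2* had 0.65, 0.39 and 0.56 FPKM, *Pou3f2* and *Pou3f1* had means of 0.193 and 0.02 FPKM, and *Olig2* was listed at 0 in every library. In the annotation used here another gene named *Pou3f1* shares 3003 of the 3004 exon bases of *Pou3f1* on the same strand. That gene is not among those of the files, so the level of *Pou3f1* is uncertain.

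Of 8 listed melanocyte targets of SOX10, 6 reached a mean of 1 FPKM, against 45.1% of all genes. Of the 8, 4 are also on the list of melanocyte markers, and *Mitf* is also among the partners and regulators. *Tyrp1*, which encodes a melanin synthesis enzyme, had 3331.02, 2647.8 and 3452.01 FPKM. *Dct*, which encodes dopachrome tautomerase, had 1430.51, 1307.95 and 1497.94 FPKM, and *Tyr*, which encodes tyrosinase, had 72.53, 59.2 and 74.43 FPKM. *Erbb3*, a neuregulin receptor of neural crest derivatives, had 75.69, 75.47 and 67.62 FPKM, and the endothelin receptor *Ednrb* had 7.06, 5.29 and 7.54 FPKM. *Ret*, which SOX10 activates in enteric neural crest, had 0.03, 0.03 and 0.01 FPKM. *Mia* had 0.04 FPKM in replicate 3 and was listed at 0 in the others, but its gene model shares 56.3% of its exon bases with *Rab4b* on the same strand, so its level is uncertain.

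**Figure D4:**
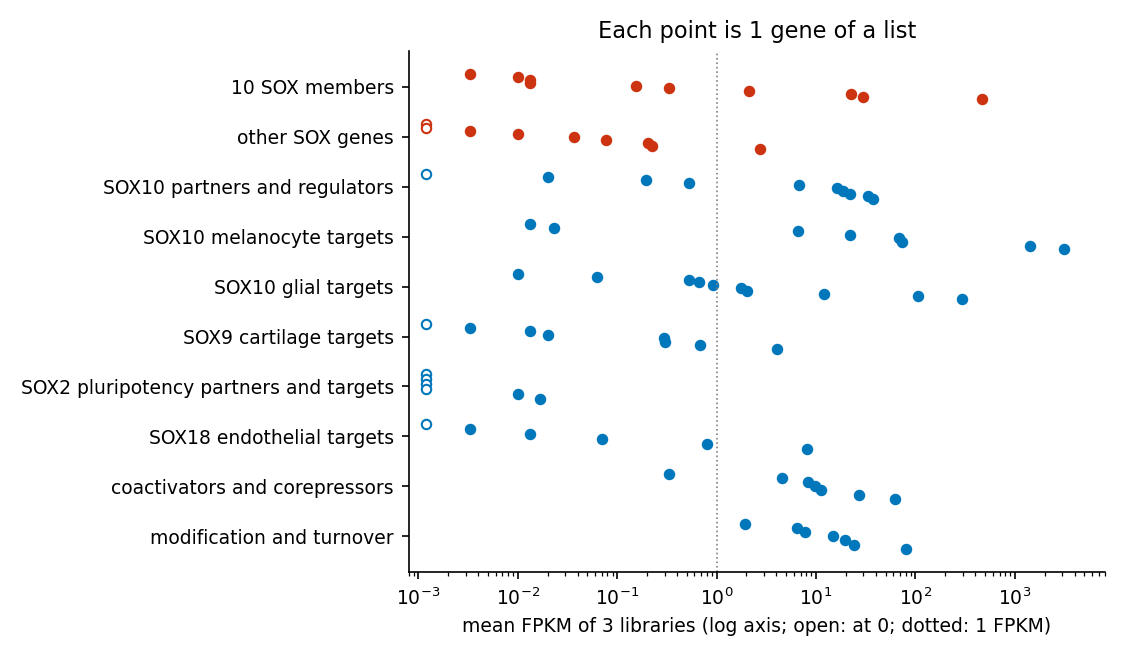
Mean FPKM of 3 libraries on a log axis for each gene of 10 lists, with open points for genes at 0 in every library and a dotted line at 1 FPKM. Of the SOX members 4 of 10 lie at or right of the line, against 45.1% of all genes. The counts are 6 of 8 for melanocyte targets of SOX10 and 0 of 6 for pluripotency partners and targets of SOX2.

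Of the 10 listed targets of SOX10 in glia, 5 had a mean of at least 1 FPKM, a share near the 45.1% of all genes. The count was 6 without replicate 4, 8 at a level of 0.1 FPKM and 3 at a level of 5 FPKM. *Pmp22*, a membrane protein gene of myelin that other tissues also express, had 294.06, 278.44 and 316.84 FPKM. *Cntf*, a neurotrophic factor gene, had a mean of 12.1 ± 1.65 FPKM (SD, n = 3). *Gjb1*, a connexin gene of myelinating Schwann cells, had 0.04, 0.1 and 0.05 FPKM.

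In the lists for the low SOX members, a smaller share of genes reached a mean of 1 FPKM than the 45.1% of all genes. At a level of 0.1 FPKM the counts were 4 of 8 for SOX9, 0 of 6 for SOX2 and 2 of 6 for SOX18. The share of all genes at 0.1 FPKM was not computed. A gene with a mean of 0.107 FPKM, *Col3a1*, ranked 12090 of 22698 genes by the mean. At 0.1 FPKM the 4 of 8 for SOX9 thus does not set that list apart from all genes. Of 8 cartilage targets of SOX9, 1 reached 1 FPKM, *Col9a1* with 4.11, 4.0 and 3.94 FPKM. *Col2a1*, the main cartilage collagen gene, had a mean of 0.677 ± 0.151 FPKM (SD, n = 3), and *Acan* was listed at 0. None of the 6 pluripotency partners and targets of SOX2 reached 1 FPKM, and 4 of them, *Pou5f1*, *Fgf4*, *Utf1* and *Lefty1*, were at 0 in every library. Of 6 endothelial targets of SOX18, only *Nr2f2*, which other cell types also express, reached 1 FPKM, with 8.21, 7.09 and 9.17 FPKM. *Cldn5* was at 0 in every library and *Cdh5* had a mean of 0.00333 FPKM.

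Of 7 listed coactivators and corepressors, 6 reached a mean of 1 FPKM, against 45.1% of all genes. *Smarca4*, the chromatin remodelling ATPase BRG1, led with 66.37, 69.3 and 53.2 FPKM, followed by the deacetylase gene *Hdac1* with 26.59, 27.76 and 27.11 FPKM. *Chd7*, a remodeller gene of neural crest, had a mean of 0.333 ± 0.0603 FPKM (SD, n = 3). All 7 listed genes of modification and turnover did so, from *Fbxw7*, a ubiquitin ligase subunit that targets SOX9 and SOX10, with a mean of 1.91 ± 0.0757 FPKM (SD, n = 3), to the nuclear import receptor *Kpnb1* with 79.8 ± 2.69 FPKM (SD, n = 3).

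The labelled cell type was checked with marker lists, beside the 45.1% of all genes with a mean of at least 1 FPKM. All 7 melanocyte markers were above 1 FPKM, with means from 22.1 to 3144 FPKM and summed levels of 5243.38 to 6245.91 FPKM in the 3 libraries. The 8 Schwann cell markers summed to 495.09 to 570.85 FPKM, and 4 of them are also listed as glial targets of SOX10. Of the 8, 7 reached 1 FPKM, among them *Pmp22*, *S100b* (70.7 ± 4.01 FPKM) and *Ngfr* (50 ± 10.6 FPKM, SD, n = 3). Melanocytes can also express *S100b* and *Ngfr*, and the part of these genes' source cells in the *Sox10* level was not tested. In bulk RNA, more cells of a type and more RNA per cell cannot be told apart. Markers of chondrocytes (4.85 to 5.18 FPKM summed), fibroblasts (1.61 to 1.95), keratinocytes (0.36 to 0.7), endothelium (0.04 to 0.06) and pluripotent cells (0.02 to 0.03) were low, with *Trp63*, *Krt1*, *Lum*, *Tek*, *Acan* and *Pou5f1* at 0 in every library. Yet 1 of 6 chondrocyte markers (*Col9a1*) and 1 of 6 fibroblast markers (*Col1a1*, mean 1.54 FPKM) reached 1 FPKM. The counts were 0 of 5 for keratinocytes, where *Krt10* had a mean of 0.49 FPKM, 0 of 6 for endothelium and 0 of 5 for pluripotent cells. Of the neuron markers *Tubb3*, a beta-tubulin gene that other cells also express, had 216 ± 34.5 FPKM (SD, n = 3), while *Dcx* and *Elavl4* were at 0. *Cdkn2a*, the locus that the label names as deleted, had 19.24, 16.49 and 24.32 FPKM. A value per gene does not show which exons were read, so it does not check the label.

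The 3 genes closest to *Sox10* in log2(FPKM + 0.1) over the 3 libraries, by Euclidean distance, were *Tinagl1* (468.26, 527.39 and 354.02 FPKM, distance 0.112), *Aebp1* (459.58, 507.03 and 378.16 FPKM, distance 0.139) and *Rps2* (479.65, 549.92 and 406.48 FPKM, distance 0.144). All 3 were lowest in replicate 4, and their exons have 55.9% to 58.5% GC. With 3 libraries of 1 condition the distance describes level and library order only.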

How the data were processed

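RNA-seq libraries of untreated melan-a cells were analysed in 3 replicates. According to the methods, the authors prepared stranded libraries, removed 10 bases from the start of each read, aligned to mm9 with STAR (2.3.0e), took out rRNA reads and counted with htseq-count (0.5.3p3) on Ensembl genes. The submitters' notes also list CASAVA 1.8.2, SAMtools and edgeR. The authors deposited FPKM values scaled by TMM. The steps from counts to FPKM and the gene lengths are not given in the sources used here. FPKM hold no counts, so no count model was used.

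Symbols, exons and GC content came from an NCBIM37 annotation from an Ensembl release before the authors', which holds 22324 of the 22698 genes. *Mia*, *Tfap2a* and *Map2* were matched through older symbols from RefSeq. Of 108 listed genes, *Sox1* had no entry. Library sizes were estimated from genes with 1 annotated transcript, at most 12 reads and a rounding error under 0.1 reads (50, 69 and 31 genes, mean distance from whole reads 0.033, 0.037 and 0.028). For genes with several transcripts the exon length used here may differ from the authors'. GC adjustment used 20 GC bins of the genes at or above 1 FPKM in every library. In each bin, a library's factor was its median log2 level minus the mean of these medians over the 3 libraries. Values were divided by that factor, taken off the log2 scale. Pairs of genes were compared on log2(FPKM + 0.1). Scripts were tested on simulated data, with Python 3.11.15, scipy 1.17.1, numpy 2.4.6, biopython 1.88, statsmodels 0.14.6, pandas 2.3.3 and matplotlib 3.10.9. The members and lists were chosen with earlier results of these data known. The genes named were the 10 members, the other SOX genes, the partners, regulators and melanocyte targets of SOX10, the 4 highest of each other list and its markers at 0, the 3 genes nearest to *Sox10*, and *Cdkn2a*. *Chd7*, *Fbxw7*, *Gjb1* and *Cdh5* were added after their values were seen. Some listed genes are not reported here. The alternatives were each replicate left out, the median, GC-adjusted values, another floor, length, pseudocount, level and total.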

Additional observations from a re-analysis of the deposited data

How the results depend on the processing

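The number of members at or above 1 FPKM was 4 with the median, with GC-adjusted values and without any 1 replicate, and it was 6 at 0.1 FPKM and 3 at 5 FPKM. The number of neighbouring pairs that were separate was 6, or 7 without replicate 3 or replicate 4. The share of *Sox10* lay between 88.8% and 90.2%. GC adjustment moved the share of genes with a larger SD from 22.6% to 93.9% for *Sox10*, from 92.4% to 20.6% for *Sox5*, from 96.5% to 41.2% for *Sox6* and from 56.1% to 35.5% for *Sox4*. The order of *Sox4* and *Sox6* reversed, to -0.50 on the log2 scale, when estimated reads replaced FPKM, which follows from their lengths. The SD of *Sox10* between libraries on the log2 scale moved to 0.0281 with GC-adjusted values and lay between 0.0767 and 0.373 with 1 replicate left out, the lowest without replicate 4. No paired comparison of conditions was possible because the labels give a single group. Depth limits *Sox8*, *Sox2*, *Sox11* and *Sox18*, and 3 libraries limit every test of order.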
